A study of Mus musculus with 15 samples.

Results

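The genes described here are 32 mouse targets and regulators of the sterol regulatory element-binding proteins (SREBPs), the transcription factors that switch on lipid synthesis. They were chosen by their known function, with earlier results of these same libraries in view, and taken from the expression table by symbol. All 32 were among the 21851 genes listed by symbol and among the 11311 genes tested. Of these, 19 serve sterol synthesis and transport (the sterol branch), 10 serve fatty acid synthesis (the fatty acid branch) and 3 are regulators. Because the choice was made with the results known, the calls below describe these genes and are not independent evidence of a direction.

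RNA came from tumour blocks of mice bearing MC38, a mouse colon adenocarcinoma cell line that grows in mice of the strain it came from. The 3 groups were given intravenous BG136 plus anti-PD-1, anti-PD-1 alone, or vehicle, with 5 tumours each and 1 library per tumour. BG136 is a purified soluble β-glucan, and anti-PD-1 is an antibody against the T cell checkpoint receptor PD-1. The labels give the genotype of all groups as wild type, and give neither the dose nor the age of the mice. All groups carried the same tumour line, and the labels do not say that the tumours came from separate mice. The p-values then measure the spread between these tumour blocks.

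SREBPs are made as membrane proteins of the endoplasmic reticulum, where they are held with their escort Scap by Insig proteins when sterols are plentiful. When sterols run low, Scap carries the SREBP to the Golgi, proteases cut it, and the freed part enters the nucleus. SREBP-2, encoded by Srebf2, is known mainly for sterol genes, and SREBP-1c, a product of Srebf1, mainly for fatty acid genes, with much overlap. Tumour cells and macrophages both run this pathway, and in macrophages the liver X receptors, which sense oxysterols, act on sterol export.

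Levels are in FPKM, in which a gene's fragments are divided by its transcript length and by the mapped fragments of the library, so levels of different genes can be compared. The FPKM sum per library lay between 377509 and 424899, and the number of reads behind it is unknown. Changes are differences in log2(FPKM + 1) ± SE from limma, fitted on all 15 libraries, and a gene is said to have risen or fallen where its adjusted p over all tested genes was under 0.05. The intestinal markers did not mark these tumours: 5 of 10 colon epithelial genes reached the testing minimum, Cdx2 was listed at 0 in all 15 libraries, and the list summed to 3.27 to 28.1 FPKM in combination, 1.55 to 20.2 FPKM in anti-PD-1 and 1.26 to 7.25 FPKM in vehicle tumours. Of those 5 genes 1, Krt18, rose in the combination against vehicle, beside 16.6% of all tested genes.

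The promoters of the genes on which the account turns are printed first, because SREBPs act through short elements close to the start site, beside the general factors NF-Y (CCAAT) and Sp1 (GGGCGG). RefSeq promoters of build GRCm38.p6, an earlier build than the GRCm39 that the submitters' processing notes name, were matched for 25 of the 32 members. No promoter was matched for Fdps, Fdft1, Sqle, Stard4, Scd1, Scd2 and Fads1. Each sequence covers the 250 bases before the start and is written 5′ to 3′ on the gene's strand, with any match on either strand in capitals: TCACNCCA (a sterol regulatory element form), CCAAT and GGGCGG. The first 3 hold a TCACNCCA match, Idi1 and Cyp51 are strongly lowered sterol genes without this letter match, Fads2 is the fatty acid gene with the largest fall, and Ebp is a sterol gene that did not fall. Sterol regulatory elements of other spelling were not marked, so a promoter without this match may still hold one.
Hmgcs1, chr13:119690101-119690350, plus strand
Hmgcs1: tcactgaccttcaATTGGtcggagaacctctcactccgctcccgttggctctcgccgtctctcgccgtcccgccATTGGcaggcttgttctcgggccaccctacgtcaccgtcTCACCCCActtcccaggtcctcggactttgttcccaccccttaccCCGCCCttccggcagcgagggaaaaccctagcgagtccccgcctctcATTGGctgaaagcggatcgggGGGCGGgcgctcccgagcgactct
Srebf2, chr15:82147019-82147268, plus strand
Srebf2: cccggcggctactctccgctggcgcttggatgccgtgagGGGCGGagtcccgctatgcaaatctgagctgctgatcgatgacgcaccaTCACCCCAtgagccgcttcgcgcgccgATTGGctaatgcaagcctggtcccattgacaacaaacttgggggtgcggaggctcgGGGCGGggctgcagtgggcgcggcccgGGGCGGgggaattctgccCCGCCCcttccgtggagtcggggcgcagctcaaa
Msmo1, chr8:64733579-64733828, minus strand
Msmo1: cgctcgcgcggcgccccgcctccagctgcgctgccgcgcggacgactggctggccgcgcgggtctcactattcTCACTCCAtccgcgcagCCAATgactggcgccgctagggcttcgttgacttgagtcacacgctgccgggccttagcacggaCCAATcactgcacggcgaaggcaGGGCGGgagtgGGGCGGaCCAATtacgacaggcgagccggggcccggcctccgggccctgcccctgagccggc
Idi1, chr13:8885356-8885605, plus strand
Idi1: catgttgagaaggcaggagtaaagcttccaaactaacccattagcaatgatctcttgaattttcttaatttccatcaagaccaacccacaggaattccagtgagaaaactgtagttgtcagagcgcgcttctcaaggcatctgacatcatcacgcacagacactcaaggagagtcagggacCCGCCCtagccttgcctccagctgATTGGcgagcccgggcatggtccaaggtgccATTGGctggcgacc
Cyp51, chr5:4104698-4104947, minus strand
Cyp51: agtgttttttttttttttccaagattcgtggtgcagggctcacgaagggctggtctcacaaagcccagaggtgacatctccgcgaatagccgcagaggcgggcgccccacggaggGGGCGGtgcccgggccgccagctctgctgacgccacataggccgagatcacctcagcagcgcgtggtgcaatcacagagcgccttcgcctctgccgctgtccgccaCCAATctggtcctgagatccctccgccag
Fads2, chr19:10101504-10101753, minus strand
Fads2: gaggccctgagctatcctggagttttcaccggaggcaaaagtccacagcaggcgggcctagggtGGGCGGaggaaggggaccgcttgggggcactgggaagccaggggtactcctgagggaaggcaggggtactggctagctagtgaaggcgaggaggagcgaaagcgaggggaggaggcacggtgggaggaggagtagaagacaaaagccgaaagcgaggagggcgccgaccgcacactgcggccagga
Ebp, chrX:8193513-8193762, minus strand
Ebp: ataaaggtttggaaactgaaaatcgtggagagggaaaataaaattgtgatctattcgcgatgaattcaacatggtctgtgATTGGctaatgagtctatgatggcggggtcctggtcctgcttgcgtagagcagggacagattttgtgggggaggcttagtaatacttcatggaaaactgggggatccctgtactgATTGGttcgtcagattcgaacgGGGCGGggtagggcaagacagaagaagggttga

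TCACNCCA was found in 3 of the 25 matched promoters (12.0%), those of Hmgcs1, Srebf2 and Msmo1, against 4.51% of the 8757 tested genes with a promoter and 4.97% of all 27025 genes with a promoter. It began 137 bases before the start in Hmgcs1, 162 in Srebf2 and 177 in Msmo1. The palindrome TCACGTGA was found in 0 of the 25, against 2.22% of tested genes. CCAAT was present in 21 of the 25 (84.0%), against 43.0% of tested genes. GGGCGG was also present in 21 of the 25 (84.0%), against 69.6% of tested genes. Both stood together in 18 of the 25 (72.0%), against 27.8% of tested genes and 14.5% of all genes with a promoter. The shares were counted over the whole reference promoter sequences of each gene, and only the printed sequences were limited to 250 bases. Letter matches describe the sequence and do not show binding. The Ebp promoter, whose gene did not fall, and the Idi1 and Cyp51 promoters, whose genes did, all hold both CCAAT and GGGCGG matches.

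BG136 plus anti-PD-1 tumours had lower levels of most genes of both branches than vehicle tumours. Of the 32 members 25 fell and 0 rose, read against a background in which 40.5% of all tested genes were called, 23.9% lower and 16.6% higher. Under median-ratio scaling the higher share of all calls was 53.7% in place of 40.9%. In that fit 24 members fell, beside 16.9% of all tested genes called lower in place of 23.9%. In the sterol branch 15 of 19 fell, in the fatty acid branch 8 of 10, and of the regulators 2 of 3. The median change was -0.73 in the sterol branch, -0.48 in the fatty acid branch and -0.49 over the regulators, beside -0.05 over all tested genes. For 12 members every combination tumour lay below every vehicle tumour, against 14.7% of all tested genes, and for 0 members every combination tumour lay above, against 9.38%. In bulk tissue, fewer cells that express a gene and less of its RNA per cell cannot be told apart.

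**Figure D1:**
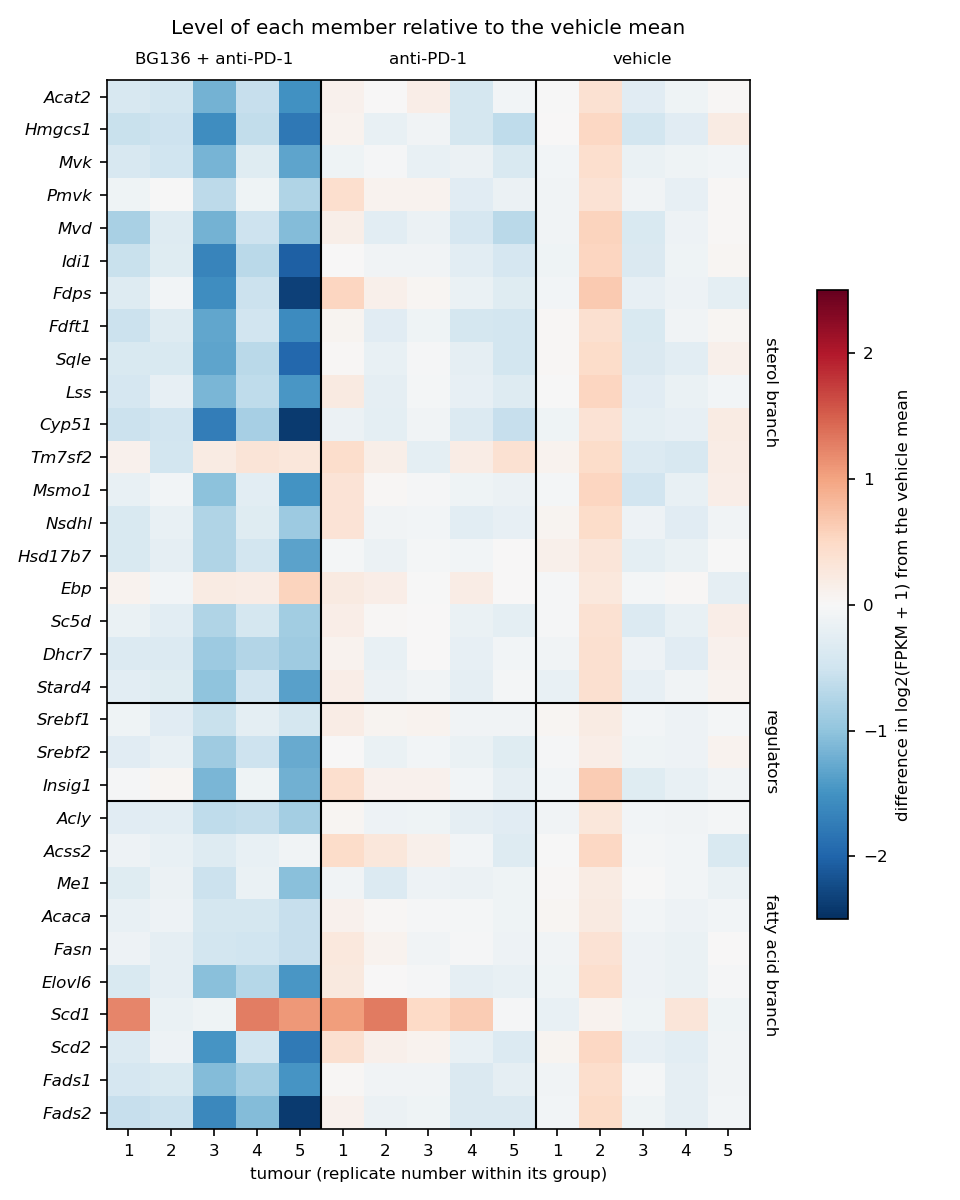
Level of each of the 32 genes (rows, by branch and order in the pathway) in each of the 15 tumours (columns, combination, anti-PD-1 and vehicle from left to right), as the difference in log2(FPKM + 1) from the vehicle mean. Combination tumours 3 and 5 are the deepest blue (lowest) columns for most genes, vehicle tumour 2 is red (high), and Scd1, Ebp and Tm7sf2 do not follow the other rows.

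The mevalonate steps turn acetyl-CoA into the isoprenoid units of sterols, and 6 of the 7 members that act there fell in the combination. Hmgcs1, the synthase that makes HMG-CoA, had 27.5, 28.2, 13.3, 26.3 and 11.2 FPKM in the combination tumours. It had 43.4, 35.7, 38.5, 30.1 and 26.0 FPKM in the anti-PD-1 tumours and 41.1, 59.3, 29.5, 33.4 and 47.4 FPKM in the vehicle tumours. Every combination tumour was below every vehicle tumour, and tumours 3 and 5 of the combination were far below the other 3. The change against vehicle was -1.01 ± 0.26. Idi1, the isomerase that makes dimethylallyl diphosphate, fell by 1.04 ± 0.28, the largest fall of these steps. Acat2, the thiolase at the entry of the route, fell by 0.83 ± 0.20, and its FPKM may share reads with a near-identical copy. Mvd, which decarboxylates the phosphorylated mevalonate, fell by 0.78 ± 0.20, and mevalonate kinase Mvk by 0.73 ± 0.18. Fdps, which makes farnesyl diphosphate and was the most abundant sterol branch gene, averaged 57.5 ± 31.0 FPKM in the combination, against 99.9 ± 29.7 FPKM in vehicle (SD, n = 5 each). Its change of -0.96 ± 0.35 was among the least certain, and the call was lost without any 1 of the 5 vehicle tumours or without combination tumour 3 or 5. Phosphomevalonate kinase Pmvk was not called, with a change of -0.33 ± 0.16 (95% interval -0.68 to 0.02).

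All 3 members that lead from farnesyl diphosphate to lanosterol fell. Squalene epoxidase Sqle, a rate-limiting step of the route, had 35.6, 35.6, 18.2, 28.9 and 11.2 FPKM in the combination tumours. The anti-PD-1 tumours had 47.7, 40.8, 45.4, 39.7 and 33.7 FPKM of Sqle, and the vehicle tumours 47.8, 64.3, 36.1, 38.9 and 51.0 FPKM. Combination and vehicle tumours did not overlap, although the highest combination tumours came within 1 FPKM of vehicle tumour 3. Its change was -0.94 ± 0.26. Squalene synthase Fdft1 fell by 0.84 ± 0.22 and lanosterol synthase Lss by 0.77 ± 0.21.

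Of the 8 members that turn lanosterol into cholesterol 5 fell, and the largest fall of the sterol branch was at the first of these steps. Cyp51, the lanosterol demethylase, had 32.1, 33.3, 13.5, 26.1 and 8.13 FPKM in the combination tumours. In the anti-PD-1 tumours it had 42.4, 39.6, 44.3, 36.8 and 31.3 FPKM, and in the vehicle tumours 43.5, 60.5, 39.5, 40.5 and 54.1 FPKM. No combination tumour reached the lowest vehicle tumour, and the combination held the widest spread of the 3 groups. The change was -1.19 ± 0.30, with group means of 22.6 ± 11.3 FPKM in the combination and 47.6 ± 9.22 FPKM in vehicle (SD, n = 5 each). Dhcr7, the last reductase of one route to cholesterol, fell by 0.64 ± 0.13, and its 5 combination tumours (9.38 to 14.3 FPKM) lay below its 5 vehicle tumours (15 to 24.6 FPKM). Hsd17b7, a ketosteroid reductase, fell by 0.64 ± 0.17, Nsdhl, a decarboxylating dehydrogenase, by 0.51 ± 0.16, and the desaturase Sc5d by 0.50 ± 0.15. Stard4, which carries cholesterol between membranes and was counted with this branch, fell by 0.68 ± 0.19.

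The other 3 genes of these late steps were not called. Msmo1, the methylsterol oxidase, changed by -0.60 ± 0.25 with an interval from -1.14 to -0.07 and overlapping groups. Tm7sf2, a sterol reductase, was the least abundant sterol branch gene, at 0.922 to 2.28 FPKM in the combination and 0.991 to 2.63 FPKM in vehicle. Its change of 0.09 ± 0.19 had an interval from -0.31 to 0.49 and turned to -0.01 without vehicle tumour 4. Ebp, the sterol isomerase, had 15.4, 13.8, 16.8, 16.7 and 21.7 FPKM in the combination tumours. The anti-PD-1 tumours had 17.0, 16.4, 14.3, 16.5 and 14.6 FPKM of Ebp and the vehicle tumours 14.1, 17.6, 14, 14.9 and 12.2 FPKM. Its highest value of all 15 was in combination tumour 5, where 15 of the 19 sterol branch genes had their lowest value of all 15. The change of Ebp was 0.19 ± 0.11 (95% interval -0.03 to 0.42).

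**Figure D2:**
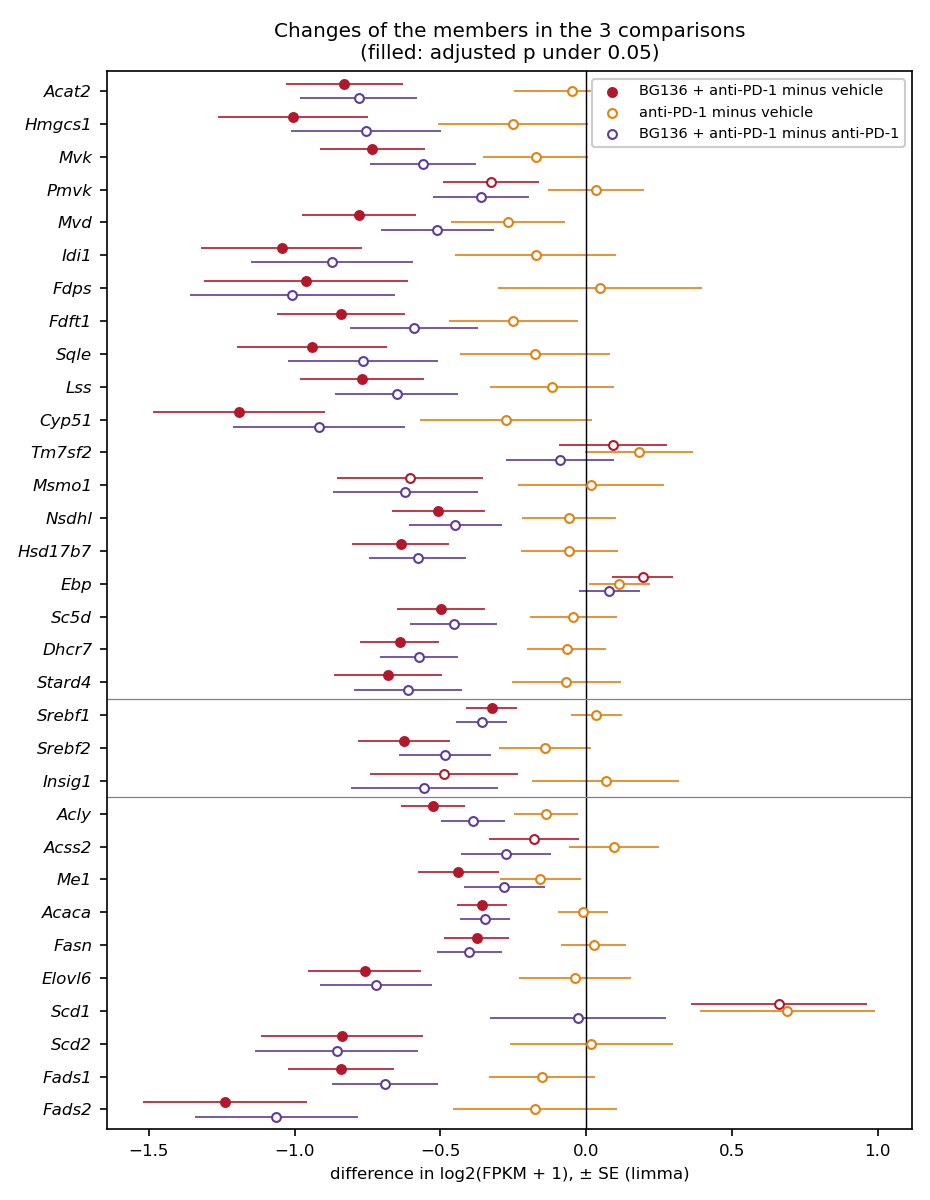
Difference in log2(FPKM + 1) ± SE of each gene in the 3 comparisons, with filled points where the adjusted p was under 0.05. Filled points, 25 in all, belong to the combination against vehicle, where Fads2 and Cyp51 lie farthest left and Scd1 farthest right.

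Of the 3 regulators 2 fell. Srebf2 had 32.5, 34.5, 20.9, 27.3 and 16.0 FPKM in the combination tumours, 39.6, 35.2, 37.5, 35.1 and 31.9 FPKM in the anti-PD-1 tumours and 38.7, 44.6, 36.7, 36.3 and 41.9 FPKM in the vehicle tumours. The combination lay wholly below vehicle, and the change was -0.63 ± 0.16. Srebf1 had 22.8, 20.1, 16.4, 20.7 and 17.9 FPKM in the combination tumours, 28.2, 25.9, 26.1, 23.1 and 23.2 FPKM in the anti-PD-1 tumours and 25.5, 28.5, 23.5, 22.3 and 23.8 FPKM in the vehicle tumours. Its fall was smaller, -0.32 ± 0.09, and combination tumour 1 overlapped the lowest vehicle tumour. A gene total does not separate the SREBP-1a and SREBP-1c transcripts of Srebf1. Insig1, the sterol-responsive anchor and itself a target, had 25.8, 27.3, 11.5, 24.6 and 10.9 FPKM in the combination tumours, 35.7, 28.5, 28.5, 25.3 and 22.4 FPKM in the anti-PD-1 tumours and 25.3, 41.8, 21.2, 23.1 and 25 FPKM in the vehicle tumours. Only combination tumours 3 and 5 were below the lowest vehicle tumour, and the change of -0.49 ± 0.25 was not called (95% interval -1.03 to 0.05).

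Fatty acid synthesis starts from cytosolic acetyl-CoA and NADPH, and 2 of the 3 members that supply them fell. Acly, which splits citrate into acetyl-CoA, fell by 0.53 ± 0.11, to 67.7 ± 11.7 FPKM in the combination, against 97.3 ± 11.7 FPKM in vehicle (SD, n = 5 each). Malic enzyme Me1, a source of NADPH, fell by 0.44 ± 0.14. Acss2, which makes acetyl-CoA from acetate, was the least abundant of this branch (1.39 to 1.84 FPKM in the combination and 1.30 to 3.29 FPKM in vehicle) and was not called, at -0.18 ± 0.15 (95% interval -0.51 to 0.15).

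Both core enzymes of fatty acid synthesis fell. Acaca, the acetyl-CoA carboxylase of the committed step, had 12.5, 13.0, 10.2, 10.2 and 9.26 FPKM in the combination tumours, 15.4, 14.5, 14, 13.9 and 13.3 FPKM in the anti-PD-1 tumours and 14.7, 16.8, 13.7, 13.0 and 13.7 FPKM in the vehicle tumours. The change was -0.36 ± 0.09, and combination tumour 2 reached the lowest vehicle tumour. Fatty acid synthase Fasn had 61.3, 57.3, 48.2, 47.4 and 44.3 FPKM in the combination tumours, 80.9, 71.3, 63.2, 65.5 and 61.4 FPKM in the anti-PD-1 tumours and 63.3, 85.8, 61.3, 59.6 and 67.4 FPKM in the vehicle tumours. Combination tumour 1 overlapped vehicle and the other 4 did not, for a change of -0.38 ± 0.11.

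Both desaturases of polyunsaturated fatty acids fell. Fads2, the Δ6 desaturase, had the largest fall of all 32 genes. It had 67.7, 69.9, 32.4, 47.1 and 18.5 FPKM in the combination tumours, 109, 92.0, 93.5, 78.1 and 78.4 FPKM in the anti-PD-1 tumours and 96.5, 141, 93.5, 86.2 and 97.0 FPKM in the vehicle tumours. The groups did not overlap, and the change was -1.24 ± 0.28, with means of 47.1 ± 22.2 FPKM in the combination and 103 ± 21.6 FPKM in vehicle (SD, n = 5 each). Fads1, the Δ5 desaturase that lies beside Fads2 in the genome, had 64.4, 66.4, 40.6, 47.8 and 30.4 FPKM in the combination tumours, 88.3, 81.1, 81.1, 67.3 and 73.6 FPKM in the anti-PD-1 tumours and 81.8, 118, 83.8, 74.4 and 81.6 FPKM in the vehicle tumours. Its groups did not overlap either, and the change was -0.84 ± 0.18. Elovl6, which lengthens palmitate, fell by 0.76 ± 0.19.

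The stearoyl-CoA desaturases, which make monounsaturated fatty acids, differed in their calls: Scd2 fell and Scd1 was not called. Scd2 had 137, 160, 62.1, 123 and 50.7 FPKM in the combination tumours, 230, 190, 186, 153 and 137 FPKM in the anti-PD-1 tumours and 182, 249, 150, 144 and 163 FPKM in the vehicle tumours. It was the most abundant of the 32 genes in vehicle, and its change was -0.84 ± 0.28 with combination tumour 2 inside the vehicle range. Scd1 had 126, 47.7, 49.4, 132 and 114 FPKM in the combination tumours, 112, 133, 76.2, 83.6 and 52.4 FPKM in the anti-PD-1 tumours and 46.8, 57.1, 49.4, 66.7 and 49.8 FPKM in the vehicle tumours. In the combination 3 of 5 tumours stood above every vehicle tumour and the other two within the vehicle range. The change of Scd1 was 0.66 ± 0.30 (95% interval 0.02 to 1.30), not called at an adjusted p of 0.0915 in limma. It was called higher without combination tumour 2 (0.87) or 3 (0.86) and with array weights (0.83).

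Scd1 is abundant in fat, and the adipocyte markers varied between tumours. Their sum over 13 genes was 329, 37.6, 153, 392 and 360 FPKM in the combination tumours. It was 222, 398, 95.9, 165 and 65.6 FPKM in the anti-PD-1 tumours and 17.0, 19.6, 103, 289 and 54.6 FPKM in the vehicle tumours. Within each group the tumour with the highest sum also had the highest Scd1. The order of the remaining tumours was the same for both in anti-PD-1, but not in the combination or in vehicle. There vehicle tumour 2, with a sum of 19.6 FPKM, had more Scd1 than vehicle tumour 3, with 103 FPKM. Of the 13 markers 9 were tested and 1, Lipe, rose in the combination against vehicle, beside 16.6% of all tested genes. Cidea was listed at 0 in 11 libraries and Ucp1 in 7. With the adipocyte score as a covariate 3 sterol and 3 fatty acid members remained lower in the combination: Acat2, Mvk, Dhcr7, Acly, Fads1 and Fads2. In that fit 12.5% of all tested genes were called lower, in place of 23.9%, and the medians were -0.56 in the sterol and -0.37 in the fatty acid branch. The part of fat tissue in these results was not tested otherwise. Sebaceous gland is rich in Scd genes, but only 2 of its 9 listed markers were at a testable level. Of these 1, Plin2, rose in the combination against vehicle, beside 16.6% of all tested genes. The markers below a testable level stood at 0.336 FPKM or less in every tumour. Among them Awat1 and Dgat2l6 were listed at 0 in all 15 libraries, so this list did not mark the gland. Of the hepatocyte markers 0 of 6 were tested. Skin keratinocyte markers (1 of 8 tested) summed to 3.99 to 9.14 FPKM in the combination, 1.85 to 11.2 FPKM in anti-PD-1 and 2.94 to 7.95 FPKM in vehicle tumours.

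**Figure D3:**
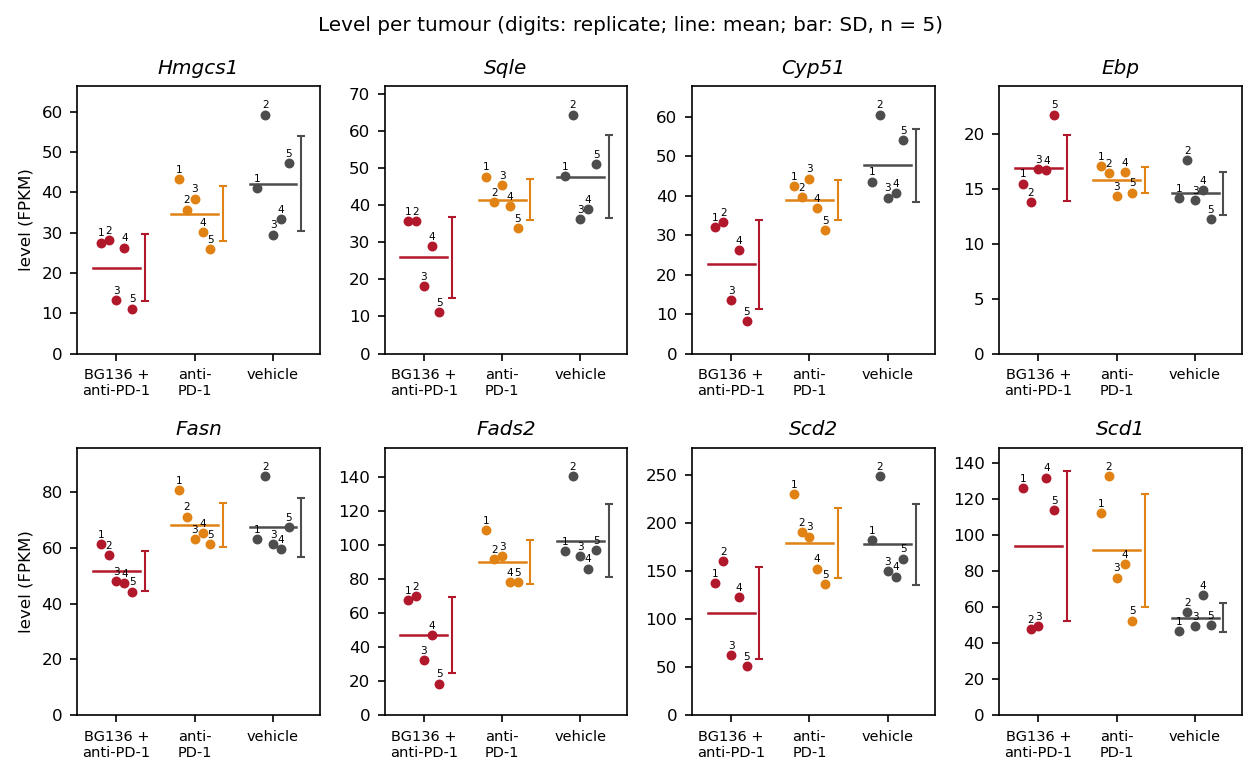
Level in FPKM of selected genes in each tumour, on linear axes from 0, with digits for the replicate, a line for the mean and a bar for the SD (n = 5). The combination is lowest in most panels with its tumours 3 and 5 at the bottom, whereas Scd1 reaches 132 FPKM in the combination, against at most 66.7 FPKM in vehicle.

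The combination tumours differed among themselves more than the other groups did, and they did so together across genes. Relative to the vehicle mean, the mean log2 level of the sterol branch was -0.34, -0.29, -1.01, -0.43 and -1.27 in combination tumours 1 to 5. It was 0.16, -0.08, -0.05, -0.22 and -0.25 in the anti-PD-1 tumours and -0.03, 0.44, -0.27, -0.18 and 0.04 in the vehicle tumours. The SD over the 5 tumours was 0.44 in the combination, 0.16 in anti-PD-1 and 0.27 in vehicle, and all 5 combination tumours were below all 5 vehicle tumours, by a small margin for tumour 2. The fatty acid branch gave -0.15, -0.23, -0.77, -0.37 and -0.91 in the combination, 0.26, 0.11, 0.02, -0.10 and -0.21 in anti-PD-1 and -0.05, 0.35, -0.09, -0.11 and -0.10 in vehicle tumours. Combination tumours 3 and 5 were the lowest pair of all 15 for 17 of 19 sterol genes, 3 of 3 regulators and 6 of 10 fatty acid genes. Vehicle tumour 2 was the highest of all 15 for 17 sterol and 9 fatty acid genes. Without combination tumours 3 and 5 together, 9 sterol and 5 fatty acid members fell, when 16.5% of all tested genes were lower in place of 23.9%, and the sterol median was -0.40.

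The same combination tumours held the most mRNA of the leukocyte markers. All 10 leukocyte markers rose in the combination against vehicle, beside 16.6% of all tested genes. Their sum was 1959, 1789, 3366, 2567 and 4724 FPKM in combination tumours 1 to 5. The sum ran over 1238 to 1905 FPKM in the anti-PD-1 tumours and 917 to 1334 FPKM in the vehicle tumours. Most of it was 1 myeloid gene, Lyz2, at 1494 to 3916 FPKM in the combination, 942 to 1559 FPKM in anti-PD-1 and 702 to 1109 FPKM in vehicle tumours. The mean log2 leukocyte level did not overlap between treated and vehicle tumours (5.04 to 6.54 in the combination, 4.87 to 5.22 in anti-PD-1 and 4.32 to 4.70 in vehicle), so treatment and leukocyte content cannot be told apart. With that level as a covariate, chosen after seeing the data, 0 of 32 members were called in the combination against vehicle in limma. There 1 member had an unadjusted p under 0.05, and 23 changed sign. In that comparison 547 of all tested genes were called lower and 331 higher, and the sterol median was 0.13. In anti-PD-1 against vehicle the same fit called 3 members higher, beside 666 of all tested genes, and 22 members changed sign. The sterol median there was 0.31. Of 10 proliferation markers 0 were called in the combination against vehicle or against anti-PD-1 in limma. Of all tested genes 40.5% and 0.0619% were called. Against anti-PD-1 all 10 changes were negative (median -0.19), and 5 had an unadjusted limma p under 0.05. Of all 11311 tested genes 7123 were negative there, and 3187 passed that p. In anti-PD-1 against vehicle 1, Rrm2, rose and 5 of 10 separated higher, against 2.21% and 7.09% of all tested genes. The proliferation sums ran over 507 to 692 FPKM in the combination, lowest in tumours 5 and 3 (507 and 574 FPKM). They ran over 648 to 732 FPKM in anti-PD-1 and 567 to 637 FPKM in vehicle tumours. Of 6 fibroblast markers 3 rose and 2 fell in the combination against vehicle, beside 16.6% and 23.9% of all tested genes. The fibroblast sums were 858 to 1974, 820 to 1472 and 1170 to 1376 FPKM in combination, anti-PD-1 and vehicle tumours. Of 10 muscle markers 0 were called in the combination against vehicle, beside 40.5% of all tested genes. The muscle sums were 1.80 to 186 FPKM in the combination, 33.4 to 166 FPKM in anti-PD-1 and 1.57 to 201 FPKM in vehicle tumours.

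**Figure D4:**
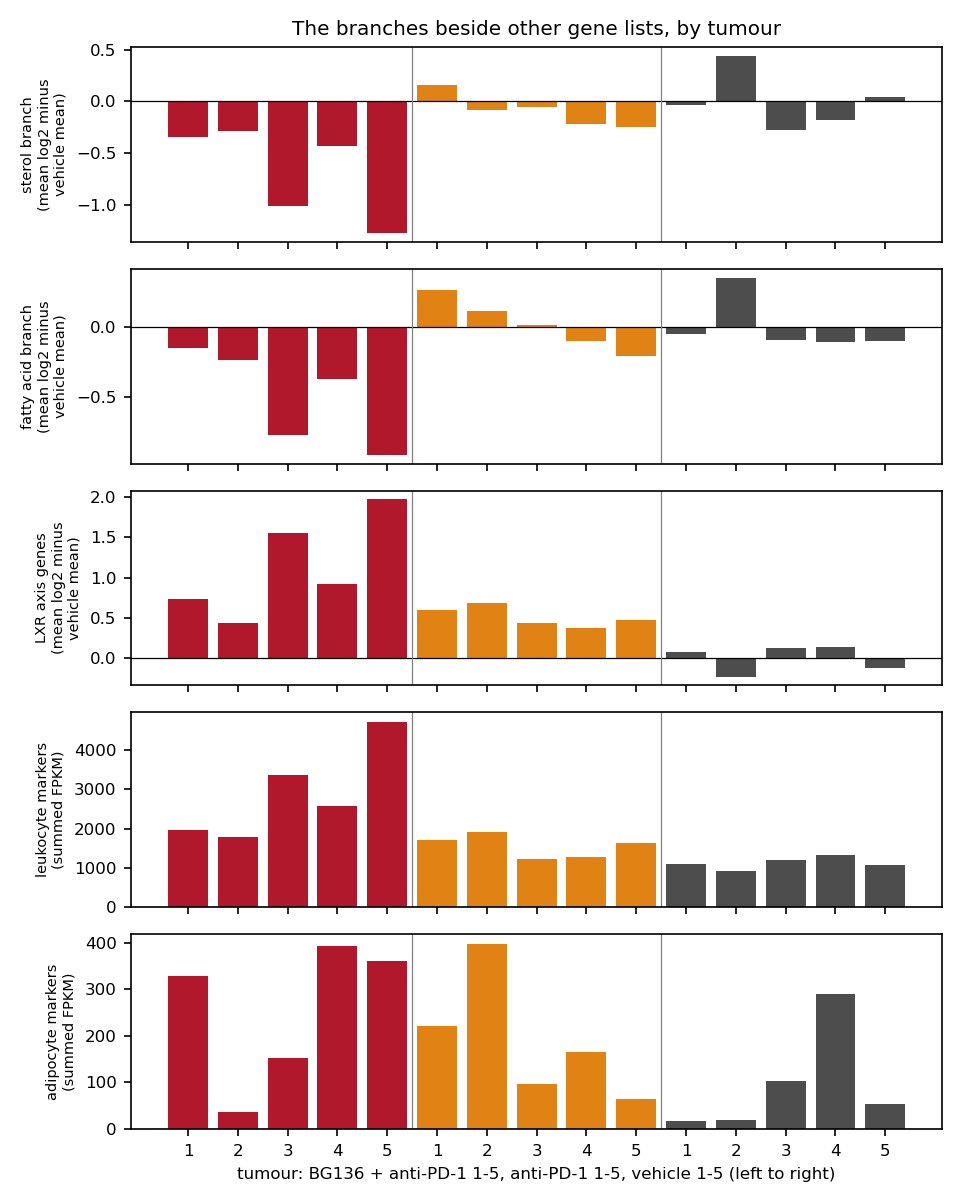
Per tumour, the upper 3 panels give the mean of log2(FPKM + 1) over the sterol branch, the fatty acid branch and the liver X receptor axis minus the vehicle mean, and the lower panels give the summed FPKM of the leukocyte and adipocyte markers, with combination, anti-PD-1 and vehicle tumours from left to right. Combination tumours 3 and 5 have the lowest sterol bars (-1.01 and -1.27) and the highest leukocyte bars (3366 and 4724 FPKM), which are mostly Lyz2.

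For anti-PD-1 alone, 0 of the 32 members were called against vehicle in limma, against 5.55% of all tested genes, 3.34% lower and 2.21% higher. The balance of calls moved with the setting: 39.8% were higher here, 28.0% under quantile normalization, 49.7% with array weights and 54.2% when both groups were fitted alone. The median change was -0.07 in the sterol branch and -0.02 in the fatty acid branch, beside 0.01 over all tested genes, and for 0 members did the groups separate, against 6.63% of tested genes separated lower and 7.09% higher. Cyp51 had the most negative change, -0.28 ± 0.30, and Hmgcs1 stood at -0.25 ± 0.26. Sqle and Fads2 stood at -0.18 ± 0.26 and -0.18 ± 0.28, and adjusting for the adipocyte score put Fads2 at 0.01. Scd1 was the 1 member with an unadjusted p under 0.05. It averaged 91.3 ± 31.4 FPKM in anti-PD-1 and 53.9 ± 8.09 FPKM in vehicle tumours (SD, n = 5 each), a change of 0.69 ± 0.30 with a limma adjusted p of 0.186. Of the anti-PD-1 tumours 4 of 5 were above every vehicle tumour, and Scd1 was called higher when both groups were fitted alone, a fit in which 1138 of the 11311 tested genes were called higher and 962 lower.

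Nearly all members had lower levels in the combination than in anti-PD-1 tumours, but none was called. In the combination against anti-PD-1, 31 of 32 changes were negative, as were 7123 of all 11311, and 0 were called in limma, where 0.0619% of all tested genes were called, all lower. At an unadjusted p under 0.05 there were 27 members, and 3187 of the 11311 tested genes. The median change was -0.59 in the sterol branch and -0.40 in the fatty acid branch, beside -0.05 over all tested genes. The groups separated, with every combination tumour lower, for 8 members, against 3.84% of tested genes: Hsd17b7, Dhcr7, Stard4, Srebf1, Acaca, Fasn, Fads1 and Fads2. Fads2 changed by -1.06 ± 0.28 (limma adjusted p = 0.0804), Cyp51 by -0.92 ± 0.30 and Dhcr7 by -0.57 ± 0.13 (limma adjusted p = 0.0790). Hmgcs1 and Sqle changed by -0.75 ± 0.26 and -0.76 ± 0.26. Without combination tumour 2 the counts were 16 sterol and 7 fatty acid members lower, when 1283 tested genes (11.3%) were called lower and 941 higher. This comparison and that against vehicle share the combination tumours, and both comparisons against vehicle share the vehicle tumours, so they are not independent.

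Genes of the same pathways outside the 32 came from lists chosen with earlier results known, and are read against the 23.9% of all tested genes called lower and 16.6% called higher. Of 14 other sterol genes tested 5 fell and 2 rose in the combination against vehicle. Acat1, the mitochondrial thiolase, fell by 0.45 ± 0.08. Npc2, which hands cholesterol out of lysosomes, rose by 0.64 ± 0.17. Of 18 other fatty acid genes tested 5 fell and 3 rose, near those shares. Acsl1, an acyl-CoA synthetase, rose by 1.06 ± 0.16 and its relative Acsl3 fell by 0.72 ± 0.19. Tecr, the last reductase of very long chain elongation, fell by 0.47 ± 0.08, and Aacs, which activates acetoacetate for synthesis, by 0.51 ± 0.16.

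Of 10 genes that process or degrade SREBP machinery 5 fell and 0 rose in the combination against vehicle, by small amounts. Of all tested genes 23.9% fell and 16.6% rose there. Mbtps1, the protease that makes the first cut in SREBP, fell by 0.29 ± 0.04 and was also the 1 gene of this list that fell in anti-PD-1 tumours (-0.22 ± 0.04 against vehicle, limma adjusted p = 0.0138). The ubiquitin ligases Syvn1 and Rnf139 fell by 0.33 ± 0.07 and 0.25 ± 0.05, and Erlin2, a membrane partner of Insig proteins, by 0.25 ± 0.06. The liver X receptor axis went the other way, with 6 of 6 genes higher in the combination, beside 16.6% of all tested genes. Nr1h3, the receptor LXRα, rose by 1.39 ± 0.23, the sterol exporters Abcg1 and Abca1 by 1.55 ± 0.30 and 1.35 ± 0.29, and Mylip, a ubiquitin ligase, by 1.07 ± 0.24. By tumour the mean of this axis relative to vehicle was 0.74, 0.44, 1.55, 0.93 and 1.97 in the combination, 0.60, 0.68, 0.44, 0.37 and 0.48 in anti-PD-1 and 0.08, -0.23, 0.13, 0.14 and -0.12 in vehicle. Within the combination it was highest in tumours 3 and 5 like the leukocyte markers. The part of leukocyte content in these changes was not tested. In anti-PD-1 tumours against vehicle, 0 of the other sterol, other fatty acid and liver X receptor genes were called in limma. All 6 liver X receptor axis changes were positive there, with a median of 0.52, as were 5832 of all 11311 changes. For 4 of the 6 every anti-PD-1 tumour lay above every vehicle tumour, against 7.09% of all tested genes.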

How the data were processed

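Tumour mRNA was sequenced from libraries made with a strand-marking mRNA kit, per the labels' protocols. The table deposited by the authors has 1 column per library, and its values were read as FPKM computed by the authors, a unit inferred from the values and from Cufflinks in the submitters' processing notes. Trimmomatic, HISAT2, HTSeq and build GRCm39 stand in the same notes, with no roles or versions. Whether counting used strand is not given in the sources used here. Of 21878 entries 27 with symbols turned into dates were left out (at most 0.168% of a library's sum).

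A gene entered the test if 5 or more libraries reached 1 FPKM. Values were taken as log2(FPKM + 1), which understates changes of low genes, and fitted in R 4.3.3 by limma 3.58.1 (3 group means over 15 libraries, eBayes with a trend), two-sided, Benjamini-Hochberg adjusted over 11311 genes in each of 3 comparisons. The fit was tried on simulated data in which genes varied independently, with 1 spread per gene for all groups. Here the genes vary together and the combination varied most, so that trial cannot vouch for the calls. Read totals are unknown: from the spacing of low values, depth relative to vehicle tumour 1 was 0.827 to 1.08 in 12 libraries. Anti-PD-1 tumour 3 and combination tumour 4 were left out, as few of their low values (1.42% and 3.99%) lay at the step. Combination tumour 4 also had the highest FPKM sum (424899). No library pair shared more than 0.0973% of its values.

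The members, lists and rules were chosen with earlier results of these data known. All 32 members are accounted for. Values per library are given for the smallest and largest change of each branch, rate-limiting enzymes, regulators and the Scd and Fads pairs, and for each pathway list up to 4 genes with the smallest p. Some genes that this rule names are not reported here. Krt18, Lipe, Lyz2, Plin2 and Rrm2 were named after their values were seen. Faxdc2, Erg28 and Spring1 were not matched by symbol. Alternatives covered pseudocounts, filters, scaling, weights, covariates, a replicate block and left-out libraries.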

Additional observations from a re-analysis of the deposited data

Results flagged for a closer look

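In 9 of 96 sets of 5 tumours (32 genes in 3 groups) 1 tumour stood apart from the other 4 beyond Dixon's 95% limit. The sets share the same libraries and the genes vary together, so the sets are not independent and the count was not set against a chance rate. Vehicle tumour 2 accounted for 7 of the 9, each time as the highest of its group. Mvk was 20.3 FPKM there, against 13.1 to 14.2 FPKM in the other vehicle tumours. Fdps was 153 FPKM, against 81.9 to 91.9 FPKM, and Insig1 41.8 FPKM, against 21.2 to 25.3 FPKM. In the fatty acid branch Acly was 118 FPKM, against 90.5 to 94.0 FPKM, and Elovl6 18.8 FPKM, against 12.2 to 13.6 FPKM. Fads1 was 118 FPKM, against 74.4 to 83.8 FPKM, and Fads2 141 FPKM, against 86.2 to 97.0 FPKM. Without this tumour 21 members fell in the combination against vehicle, in place of 25, and 21% of all tested genes, in place of 23.9%. The other two cases were low values of tumour 2 of a treated group: Tm7sf2 at 0.922 FPKM in the combination, where the others had 1.81 to 2.28 FPKM, and Me1 at 28.0 FPKM in anti-PD-1, where the others had 32.4 to 33.9 FPKM.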

How the results depend on the processing

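In the combination against vehicle, leaving out 1 library at a time gave 13 to 16 sterol and 6 to 8 fatty acid members lower, 0 to 0 and 0 to 1 higher (Scd1), and medians of -0.80 to -0.59 and -0.55 to -0.39. The share of all tested genes called lower in these fits ran from 19.6% (without vehicle replicate 5) to 26.7% (without combination replicate 2). Tm7sf2 ranged from -0.0077 (without vehicle replicate 4) to 0.23 (without combination replicate 2), and was -0.0105 without combination replicates 3 and 5 together. That last fit left 9 sterol members (median -0.40) and 5 fatty acid members lower, beside 16.5% of all tested genes. With the adipocyte score 3 and 3 were lower (medians -0.56 and -0.37), when 12.5% of all tested genes were lower in place of 23.9%. With array weights 19 of 32 members were lower and 1 fatty acid member was higher, beside 21.6% of all genes lower. With the leukocyte score, chosen after seeing the data, 0 sterol (median 0.13) and 0 fatty acid members (median 0.0056) were lower, beside 4.84% of all tested genes. The cause of these shifts was not tested. Pseudocounts, filters and scaling gave 24 or 25 members lower, beside 15.6% (no filter) to 26.1% (quantile normalization) of all tested genes, and 16.9% under median-ratio scaling. The compared groups alone gave 22 members lower, beside 18.7% of all tested genes.

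In anti-PD-1 against vehicle, libraries left out gave 0 to 0 calls and medians of -0.13 to 0.03 (sterol) and -0.09 to 0.06 (fatty acid). In these fits 1.3% to 5.37% of all tested genes were lower, and 80 to 514 genes higher. Fitted alone, these groups gave 1 fatty acid member higher, with 1138 of all genes higher in place of 250. With the leukocyte score 2 sterol (median 0.31) and 1 fatty acid member were higher, beside 666 of all genes, and Fads2 was 0.0101 with the adipocyte score. In the combination against anti-PD-1 the ranges were 0 to 16 sterol and 0 to 7 fatty acid members lower, both highest values without combination replicate 2, with medians of -0.70 to -0.44 and -0.46 to -0.33. Without that replicate 11.3% of all tested genes were lower. The sterol median was -0.15 with the leukocyte score.

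Over 15 same-number pairs of tumours the deviations correlated at r = -0.388 to 0.293, with 2 over 0.1. Between vehicle and combination r was 0.0374 to 0.293, and between anti-PD-1 and combination -0.388 to -0.117. Between vehicle and anti-PD-1 it was -0.2 to 0.0427. Pairs of different numbers were not compared, so these values cannot decide whether the replicate numbers pair the tumours. With the replicate block 16 sterol and 8 fatty acid members were lower in the combination against vehicle (Msmo1 was added), beside 21.9% of all tested genes. In anti-PD-1 against vehicle 0 members were called with the block, beside 214 of all tested genes lower and 133 higher. Read depth is unknown, so counting error could not be given.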
